A study of Homo sapiens with 4 samples.

Results

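Divergent transcripts are RNAs that start beside the promoter of another gene and run away from it on the opposite DNA strand. Gene nomenclature gives the annotated ones the name of the neighbouring gene followed by -DT, and that neighbour is called the partner here. Of 38972 genes in the expression table, 553 had such a symbol, and 203 of these are described, chosen by a mean level of at least 1 TPM across all 4 libraries. TPM (transcripts scaled to a common total) gives each transcript's abundance per length as a part of its library. The choice of members used the mean over both groups and not the difference between them.

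RNA was sequenced from HEK293T cells, an established line from human embryonic kidney that carries the SV40 large T antigen. By their labels, the oeRNH1 libraries (n = 2) came from cells overexpressing RNase H1, and the oeFlag libraries (n = 2) from cells overexpressing the Flag epitope tag as the control. The construct, its promoter, the time after its introduction and any selection of RNA by poly(A) tail were not stated in the labels. Nothing in the labels says that replicates were separate cultures, so each p-value speaks only of the variation among these libraries, part or all of which could be technical. The comparison asks which transcripts change with overexpressed RNase H1 relative to Flag.

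RNA polymerase II starts transcription in both directions at most active mammalian promoters. The product upstream of the gene is usually ended early at a nearby poly(A) signal and degraded by the nuclear exosome, whereas the annotated DT transcripts are spliced or long enough to have a gene model. Nascent RNA can pair with its DNA template and form an R-loop, often near promoters, and RNase H1 cleaves the RNA strand of such hybrids. For most of these transcripts no function is established.

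RNASEH1, the gene to be overexpressed by the labels, was not raised in the libraries labelled oeRNH1. RNASEH1 stood at 29.93 and 29.67 TPM in oeRNH1 libraries and at 32.09 and 32.8 TPM in oeFlag libraries, a log2 fold change of -0.12 with a 95% interval from -0.27 to 0.04 (limma adjusted p = 0.26). RNH1, a separate gene that encodes a ribonuclease inhibitor and whose symbol resembles the label, differed by -0.02 on the log2 scale (limma adjusted p = 0.857). The RNA level thus does not bear out the label oeRNH1, and the labels do not say whether RNA of the construct would be counted under RNASEH1. Groups are therefore called by their labels, and each direction is that of the libraries labelled oeRNH1. Log2 values of the tested genes correlated at 0.981 to 0.99 between libraries. Of the 7 genes often listed for the neural and kidney character of HEK293, 7 had a mean of at least 1 TPM, and their summed level was 1100 and 1090 TPM in oeRNH1 libraries and 1020 and 1040 TPM in oeFlag libraries. Markers of carcinoma epithelium summed to 6.99 and 4.7 TPM in oeRNH1 libraries and 4.32 and 5.27 TPM in oeFlag libraries, with 1 of 6 at 0 in every library. Fibroblast markers summed to 15.3 and 18.7 TPM in oeRNH1 libraries and 19.3 and 19.8 TPM in oeFlag libraries, and blood cell markers to 8.46 and 9.48 TPM against 8.61 and 10.3 TPM. In bulk RNA, fewer cells of a type and less RNA per cell cannot be told apart.

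In the gene models of GENCODE release 29 on GRCh38, 202 of the 203 divergent transcripts had a model together with their partner, and all 202 lay on the opposite strand. MICB-DT had no model there. The distance from the start of the partner back to the start of the divergent transcript, measured between the outer ends of the gene models, had a median of 99.5 bases (interquartile range -34 to 210). It was between 0 and 300 bases in 109 pairs and within 1000 bases in 182. In 58 pairs it was negative and the 2 gene models overlapped, head to head in 55, while in 3 (CHKB-DT, PPP4R3B-DT and TRIM8-DT) the divergent model lay inside that of the partner. Taking the closest starts of any annotated transcripts, 163 pairs lay within 300 bases and 190 within 1000. The 12 others included EPM2A-DT, whose nearest start was 63386 bases from that of EPM2A. In 54 pairs exons of both transcripts covered the same bases, with a median overlap of 123 bases. Whether the counting used strand is not given in the sources used here, so in these 54 pairs reads of one transcript and of the other cannot be told apart. The release classed 110 of the transcripts as antisense, 75 as lincRNA, 12 as processed transcripts and 5 as lncRNAs of bidirectional promoters.

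**Figure D1:**
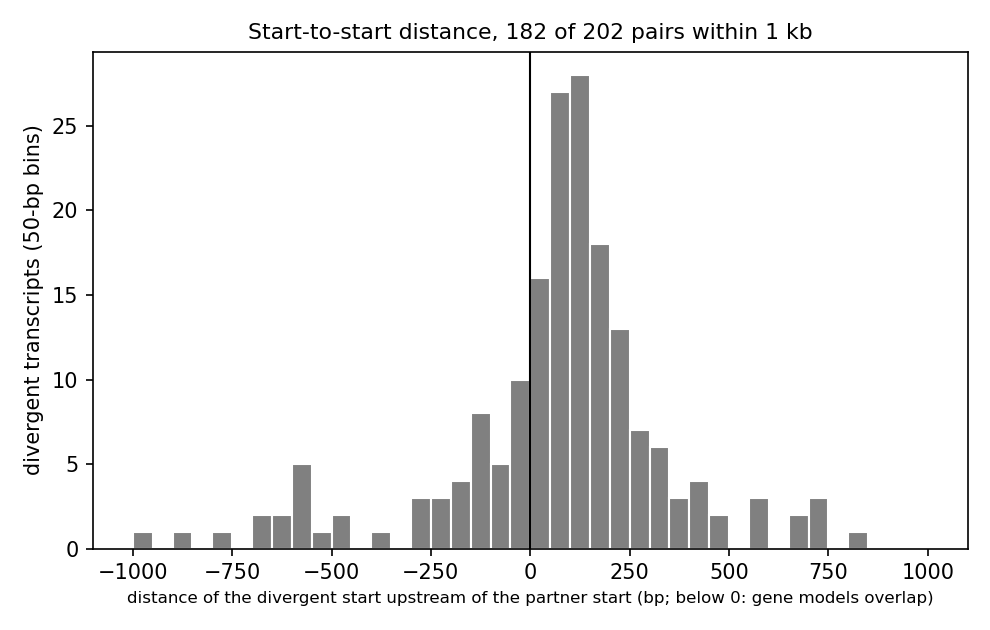
Distance in bases between the starts of each divergent transcript and its partner gene (x axis, outer ends of the GENCODE gene models) and number of pairs (y axis). Values below 0 are gene models that overlap. The median was 99.5 bases, and 182 of 202 pairs lay within 1000 bases.

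The promoters of the partners were rich in GC beside all annotated promoters. Windows of 250 bases before the RefSeq start (GRCh38.p14) were found for 171 partner symbols and set beside all 27305 symbols with a window. Median GC content was 67.2% in the partners and 58% in all promoters, and the observed over expected ratio of CG dinucleotides was 0.907 against 0.556. Motifs were searched on both strands, and a match is only a description of the letters. The GC box GGGCGG, bound by Sp factors, was found in 70.8% of partner windows and 42.3% of all windows. The core CCGGAAG, bound by ETS factors, stood in 24% against 8.82%. The CCAAT box, bound by NF-Y, stood in 42.1% against 33%, and the E-box CACGTG in 8.77% against 6.49%. The cAMP response element TGACGTCA, searched after the stretches printed here had been read, stood in 3.51% against 1.77%. TATAAA, the TATA box, stood in 5.85% of partner windows and 11.1% of all windows. Each of these was described by its share, with no test. The set of all promoters was not limited to genes expressed here or to head-to-head pairs. Whether these shares are particular to promoters with a divergent transcript was not tested.

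Of the 5 divergent transcripts that passed the test between oeRNH1 and oeFlag, 4 have a stretch of DNA between their start and that of the partner. These stretches, or a part of them, are shown because both transcripts of the pair are annotated to leave them in opposite directions. Whether they act as a shared promoter was not tested. Each runs 5′ to 3′ on the strand of the partner, from RefSeq windows on GRCh38.p14, and capitals mark matches to the 6 motifs. For SP2-DT and SP2 the 300 bases directly before the GENCODE start of SP2 are given (chr17:47895850-47896149, plus strand). For HCCS-DT and HCCS the stretch is all 159 bases between the GENCODE starts (chrX:11111142-11111300, plus strand). For APPBP2-DT and APPBP2 it is the 50 bases between the divergent start and the RefSeq start of APPBP2 (chr17:60526243-60526292, minus strand). For CD2BP2-DT and CD2BP2 it is all 79 bases between the GENCODE starts (chr16:30355362-30355440, minus strand).
SP2: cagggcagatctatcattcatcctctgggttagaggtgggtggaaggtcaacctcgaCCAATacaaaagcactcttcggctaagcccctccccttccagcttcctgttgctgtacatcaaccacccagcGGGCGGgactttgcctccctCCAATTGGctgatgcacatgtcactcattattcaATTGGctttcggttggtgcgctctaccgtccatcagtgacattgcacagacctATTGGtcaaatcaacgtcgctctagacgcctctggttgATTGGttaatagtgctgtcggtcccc
HCCS: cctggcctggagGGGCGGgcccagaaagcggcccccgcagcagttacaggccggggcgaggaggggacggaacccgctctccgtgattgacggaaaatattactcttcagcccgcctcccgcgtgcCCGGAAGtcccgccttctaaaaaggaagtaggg
APPBP2: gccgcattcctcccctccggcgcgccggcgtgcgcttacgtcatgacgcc
CD2BP2: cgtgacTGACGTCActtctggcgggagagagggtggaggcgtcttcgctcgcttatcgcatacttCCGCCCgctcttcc
The SP2 stretch held 6 matches to CCAAT, of which 2 overlap in a palindrome, while 35.7% of all promoters hold at least 1 match in a window of that length. This window takes 250 bases before the RefSeq start and the rest after it, whereas the SP2 stretch lies wholly before the GENCODE start. The SP2 stretch also held 1 GC box, as 44.6% of promoters do in the same window. The HCCS stretch held 1 GC box (37.4% of promoters at that length) and 1 ETS core (7.36%). The CD2BP2 stretch held 1 GC box (27.6%) and 1 cAMP response element (1.07%). In the APPBP2 stretch, 74% GC, none of the 6 motifs was found. The gene models of RNASEH1-DT and RNASEH1 overlap by 125 exonic bases, so no stretch lies between their starts.

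Divergent transcripts were mostly scarce beside their partners. Their mean level had a median of 2.48 TPM (range 1 to 40.9), against 31.3 TPM for the partners and 15.9 TPM for all 15651 genes past the same minimum. The divergent transcript stood at a median of 8.84% of its partner (interquartile range 3.33% to 18.5%). It was below 10% of the partner in 114 pairs, at 10% to 100% in 78 and above the partner in 11. By library the median share was 8.44% and 7.77% in oeRNH1 libraries and 8.9% and 8.55% in oeFlag libraries. The summed level of the 203 transcripts was 796 and 817 TPM in oeRNH1 libraries and 818 and 828 TPM in oeFlag libraries. Levels of divergent transcript and partner were correlated across the 199 pairs whose partner also averaged at least 1 TPM. The Pearson correlation was 0.01 on the log scale and the Spearman correlation 0.04. These pairs share the same 4 libraries, and the correlations are descriptions. The merged exons of each gene had a median total length of 1730 bases in the divergent transcripts, against 5640 bases in these 199 partners. The longest annotated transcript of each gene had a median GC content of 48.1% against 44.8%.

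**Figure D2:**
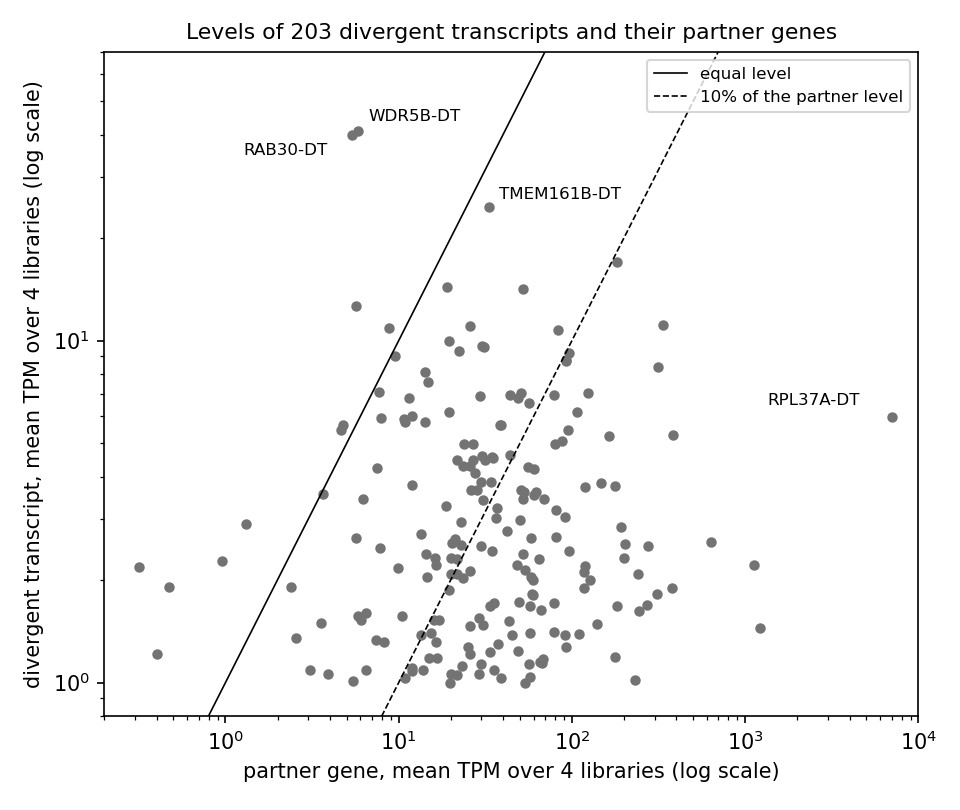
Mean TPM over 4 libraries of each of 203 divergent transcripts (y axis, log scale) against its partner gene (x axis, log scale). The solid line is equal level and the dashed line 10% of the partner. WDR5B-DT and RAB30-DT stand far above the solid line, and 114 points lie below the dashed line.

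WDR5B-DT was the most abundant, at 40.49 and 47.86 TPM in oeRNH1 libraries and 41.0 and 34.44 TPM in oeFlag libraries. Its partner WDR5B, a WD-repeat protein close to the histone methyltransferase subunit WDR5, averaged far less, so that the divergent transcript stood at 701% of it. RAB30-DT, beside the gene of a Golgi-associated Rab GTPase, had 39.91 and 34.92 TPM in oeRNH1 libraries and 43.81 and 41.23 TPM in oeFlag libraries, 746% of RAB30. The groups overlapped for WDR5B-DT (log2 fold change 0.22 ± 0.11, SE) but not for RAB30-DT, which was lower in both oeRNH1 libraries (-0.18 ± 0.08). Neither passed the test (limma adjusted p = 0.239 for WDR5B-DT and 0.195 for RAB30-DT). TMEM161B-DT came next, at 25.56 and 24.82 TPM in oeRNH1 libraries and 24.23 and 23.28 TPM in oeFlag libraries, 74.3% of TMEM161B. Both oeRNH1 libraries were slightly above both oeFlag libraries for TMEM161B-DT, and the change of 0.08 ± 0.07 did not pass the test (limma adjusted p = 0.479).

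GARS1-DT lies beside the glycyl-tRNA synthetase gene and had 13.57 and 15.62 TPM in oeRNH1 libraries and 20.38 and 18.61 TPM in oeFlag libraries. Both oeRNH1 libraries were lower, at log2 -0.4 ± 0.1, and the limma adjusted p was 0.0556. GARS1 itself differed by 0.07 ± 0.05. SLC12A2-DT, beside the sodium-potassium-chloride cotransporter gene, had 13.29 and 12.76 TPM in oeRNH1 libraries and 16.37 and 14.84 TPM in oeFlag libraries. The groups did not overlap, at -0.24 ± 0.09 (limma adjusted p = 0.133). TBC1D22A-DT, at 222% of a partner with a Rab GTPase-activating domain, had 12.22 and 9.45 TPM in oeRNH1 libraries and 15.2 and 13.46 TPM in oeFlag libraries. It too was lower in both oeRNH1 libraries, at -0.38 ± 0.14 (limma adjusted p = 0.122), and TBC1D22A stood beside it at -0.34 ± 0.14 (limma adjusted p = 0.166).

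Also among the 10 most abundant were UBA6-DT, COX10-DT and ANKRD42-DT. UBA6-DT, beside a ubiquitin-activating enzyme gene, stood at 26.9% of its partner and differed by 0.04 ± 0.11. COX10-DT, beside the gene of the enzyme that makes heme O for cytochrome c oxidase, stood at 42.9% of its partner and differed by -0.01 ± 0.1. ANKRD42-DT was at 124% of ANKRD42 and differed by -0.17 ± 0.19. In all 3 the groups overlapped, and limma adjusted p lay between 0.586 and 0.974.

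At the other end stood divergent transcripts of very abundant partners. RPL37A-DT, beside a ribosomal protein gene, had 6.45 and 4.73 TPM in oeRNH1 libraries and 5.09 and 7.57 TPM in oeFlag libraries, which is 0.0844% of RPL37A at 7060 TPM. H3-3A-DT, beside a histone H3.3 gene, was at 0.118% of its partner. The mean cut of 1 TPM lay between KDSR-DT, SMC5-DT and FHIP1A-DT on its upper side and TMEM14B-DT, CEP83-DT and INSIG1-DT below it, the last 3 at means of 0.998, 0.982 and 0.98 TPM. FHIP1A-DT had 0 and 1.94 TPM in oeRNH1 libraries and 1.03 and 1.07 TPM in oeFlag libraries. TMEM14B-DT had 0.68 and 0.29 TPM in oeRNH1 libraries and 1.24 and 1.78 TPM in oeFlag libraries. Since TPM keeps no sequencing depth, the counting error behind such low values is unknown.

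Between oeRNH1 and oeFlag, 5 of the 203 divergent transcripts passed the test, 2 higher (APPBP2-DT and CD2BP2-DT) and 3 lower (SP2-DT, HCCS-DT and RNASEH1-DT). That is 2.46%, against 11.8% of all 15651 tested genes, 6.3% higher and 5.54% lower. At an unadjusted p under 0.05 there were 26 (12.8%), against 31.3% of all tested genes. The groups did not overlap for 47 that were higher and 39 that were lower in oeRNH1 libraries (42.4%), against 31.3% and 29.4%, or 60.7% in all, of the tested genes. The median log2 fold change was 0.01 (interquartile range -0.18 to 0.23), against 0.0 (-0.17 to 0.17) over all tested genes. The median standard error was 0.195, against 0.101 over all tested genes, and the median half-width of the 95% interval was 0.47 against 0.25. On the tested scale of log2(TPM + 1) the interval lay within -1 and 1 for 157 of the 203, and within -0.58 and 0.58 for 70. Since 1 was added to each value and the median level was 2.48 TPM, these limits allow larger fold changes in TPM itself. The counts therefore do not exclude 2-fold or 1.5-fold changes in TPM.

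Level and the share of calls moved together. Among divergent transcripts with a mean of 1 to under 2 TPM, 0 of 76 were called by limma (2 at an unadjusted p under 0.05), against 2.45% of 2000 tested genes of that level. From 2 to under 5 TPM it was 2 of 80 (2.5%), against 4.16% of 2405 genes. From 5 to under 50 TPM it was 3 of 47 (6.38%), against 13.1% of 7854 genes. The difference between the divergent transcripts and other genes at a matched level was not tested. Among other named noncoding classes, 445 tested genes with antisense (AS) symbols had 12 calls higher and 11 lower (5.17%) at a median of -0.01. The 166 with LINC symbols had 2 higher and 6 lower (4.82%) at a median of -0.02.

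**Figure D3:**
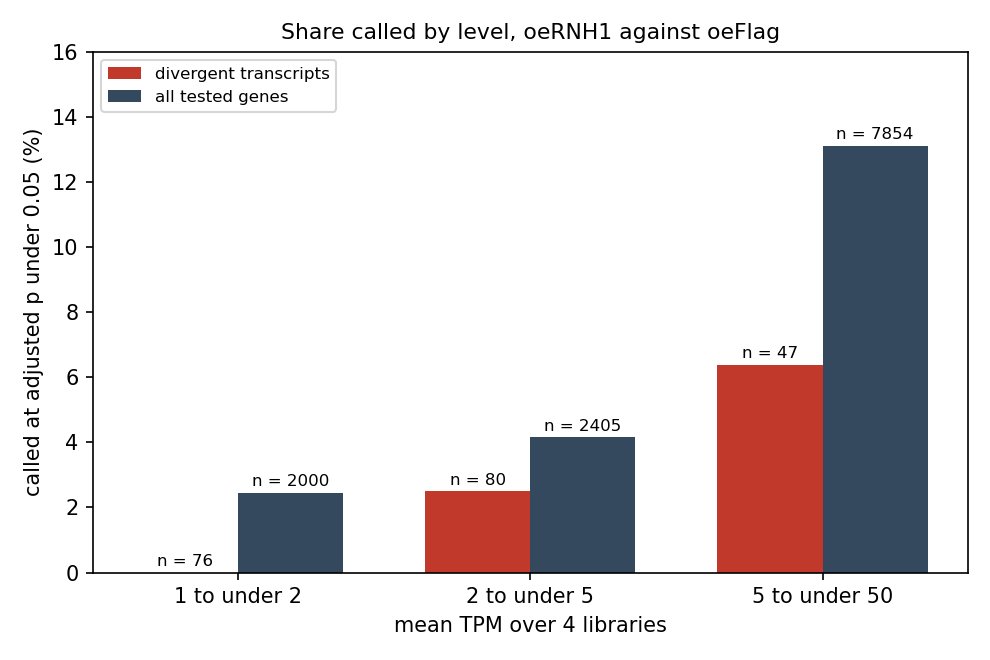
Share of divergent transcripts (red) and of all tested genes (blue) called at an adjusted p under 0.05 in oeRNH1 against oeFlag (y axis, percent), by mean TPM over 4 libraries (x axis). Numbers over the bars are the genes tested. The share of divergent transcripts is 0%, 2.5% and 6.38% from the lowest level to the highest, below that of all tested genes at each level.

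SP2-DT fell. It had 3.92 and 4.27 TPM in oeRNH1 libraries (4.09 ± 0.247, SD, n = 2) and 8.14 and 6.83 TPM in oeFlag libraries (7.49 ± 0.926, SD, n = 2). Both oeRNH1 libraries lay below both oeFlag libraries, at log2 -0.73 ± 0.14 (SE, 95% interval -1.06 to -0.4, limma adjusted p = 0.0287). The transcript is annotated on chromosome 17 from 47891255 to 47895812 on the minus strand. Its partner SP2, a zinc-finger transcription factor of the Sp family, had 17.92 and 14.46 TPM in oeRNH1 libraries and 10.93 and 13.15 TPM in oeFlag libraries. SP2 was higher in both oeRNH1 libraries at 0.4 ± 0.14, which did not pass the test (limma adjusted p = 0.111). As a share of SP2, the divergent transcript stood at 21.9% and 29.5% in oeRNH1 libraries and 74.5% and 51.9% in oeFlag libraries.

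HCCS-DT fell. It had 2.39 and 1.72 TPM in oeRNH1 libraries (2.06 ± 0.474, SD, n = 2) and 5.37 and 4.28 TPM in oeFlag libraries (4.83 ± 0.771, SD, n = 2). The groups did not overlap, at log2 -0.93 ± 0.19 (SE, 95% interval -1.39 to -0.48, limma adjusted p = 0.0336). It is annotated on chromosome X from 10847877 to 11111141 on the minus strand. HCCS, the synthase that attaches heme to cytochrome c, had 56.83 and 56.42 TPM in oeRNH1 libraries and 44.86 and 49.61 TPM in oeFlag libraries. HCCS was higher in both oeRNH1 libraries at 0.26 ± 0.07 and did not pass the test (limma adjusted p = 0.0601). The share of HCCS-DT in HCCS was 4.21% and 3.05% in oeRNH1 libraries and 12.0% and 8.63% in oeFlag libraries.

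RNASEH1-DT, beside the gene named in the labels, fell at log2 -0.47 ± 0.11 (SE, 95% interval -0.74 to -0.2, limma adjusted p = 0.0471). It had 7.68 and 7.99 TPM in oeRNH1 libraries (7.83 ± 0.219, SD, n = 2) and 12.13 and 10.45 TPM in oeFlag libraries (11.3 ± 1.19, SD, n = 2). The oeFlag libraries were higher without overlap, and the share of RNASEH1 was 25.7% and 26.9% in oeRNH1 libraries and 37.8% and 31.9% in oeFlag libraries. It lies on chromosome 2 from 3558492 to 3561745 on the plus strand, and 125 of its exonic bases are also exon of RNASEH1, so the 2 levels may share reads. The call did not pass under quantile normalization (adjusted p = 0.0585) or GC correction (0.0569).

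APPBP2-DT rose. It had 5.73 and 5.94 TPM in oeRNH1 libraries (5.84 ± 0.148, SD, n = 2) and 3.39 and 3.05 TPM in oeFlag libraries (3.22 ± 0.24, SD, n = 2). Both oeRNH1 libraries were higher, at log2 0.7 ± 0.13 (SE, 95% interval 0.38 to 1.02, limma adjusted p = 0.0301). It is annotated on chromosome 17 from 60526293 to 60550798 on the plus strand. APPBP2, a substrate receptor of a cullin ubiquitin ligase first found by its binding to the amyloid precursor protein, had 32.33 and 35.03 TPM in oeRNH1 libraries and 36.94 and 35.12 TPM in oeFlag libraries. Its oeRNH1 values were the lower ones, by little (-0.1 ± 0.07, limma adjusted p = 0.412). APPBP2-DT stood at 17.7% and 17.0% of APPBP2 in oeRNH1 libraries and 9.18% and 8.68% in oeFlag libraries.

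CD2BP2-DT rose. It had 11.54 and 10.51 TPM in oeRNH1 libraries (11.0 ± 0.728, SD, n = 2) and 7.8 and 6.94 TPM in oeFlag libraries (7.37 ± 0.608, SD, n = 2). The groups did not overlap, at log2 0.52 ± 0.11 (SE, 95% interval 0.25 to 0.79, limma adjusted p = 0.0377). It is annotated on chromosome 16 from 30355441 to 30357104 on the plus strand. CD2BP2, a protein of the U5 small nuclear ribonucleoprotein that also binds the tail of CD2, had 102.07 and 102.78 TPM in oeRNH1 libraries and 87.96 and 93.2 TPM in oeFlag libraries. It was higher in both oeRNH1 libraries, at 0.18 ± 0.05, and did not pass the test (limma adjusted p = 0.0789). CD2BP2-DT stood at 11.3% and 10.2% of it in oeRNH1 libraries and 8.87% and 7.45% in oeFlag libraries.

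These 5 calls rest on 2 libraries a group. Leaving out any 1 of the 4 libraries left 0 calls among the 203 by limma (13 to 30 at an unadjusted p under 0.05), and so did a fit without an intensity trend (37) or without the filter on low values (18).

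**Figure D4:**
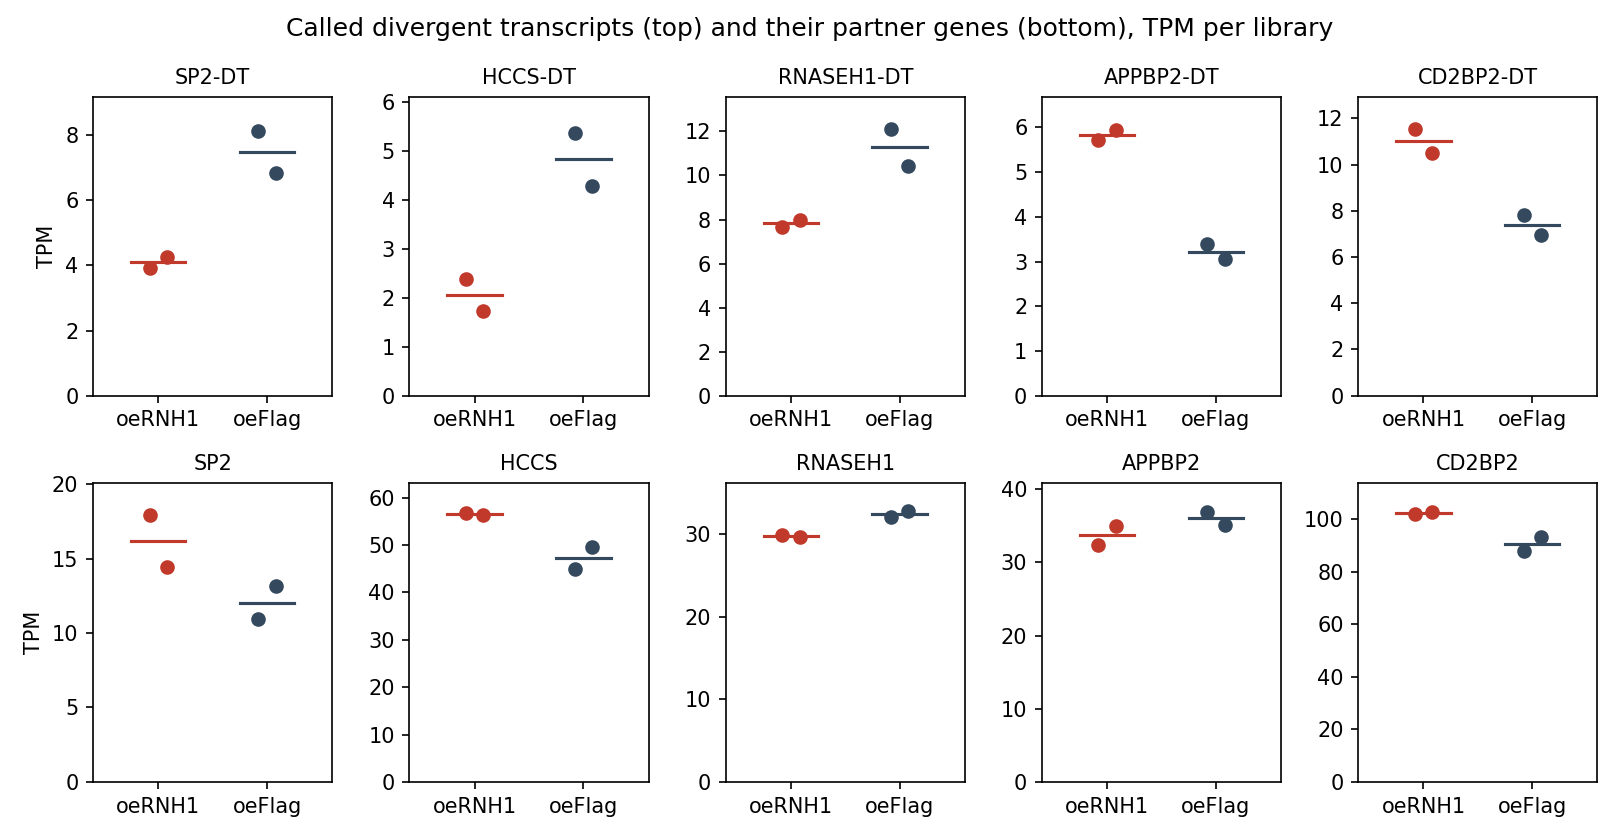
TPM of the 5 called divergent transcripts and of their partner genes in each library, oeRNH1 left and oeFlag right; points are libraries and bars are group means. The 2 groups do not overlap for any of the 5 divergent transcripts.

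Calls among the partners were more numerous in count than among the divergent transcripts, and the difference in share was not tested. Of 203 partners, 199 had a mean of at least 1 TPM and were tested; ADGRB3, CFAP58, PIWIL2 and PKD2L2 were below. Of the 199, 18 were called higher and 9 lower (13.6%, against 11.8% of all tested genes), at a median log2 fold change of 0.02. No pair had both transcripts called. In 27 pairs the partner alone passed, and in 5 the divergent transcript alone. The signs of the fold changes were both above 0 in 54 pairs and both below 0 in 42. The divergent transcript was above 0 and the partner below in 48, and the reverse held in 55. Across the 199 pairs the log2 fold changes had a Pearson correlation of -0.06 and a Spearman correlation of -0.06. Over 1569 other head-to-head pairs of tested genes, with starts within 1 kb, these were 0.08 and 0.07. All pairs share the same 4 libraries and their scaling. In the 53 tested pairs with exon overlap the Pearson correlation was -0.0, and in the 146 without it -0.09.

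**Figure D5:**
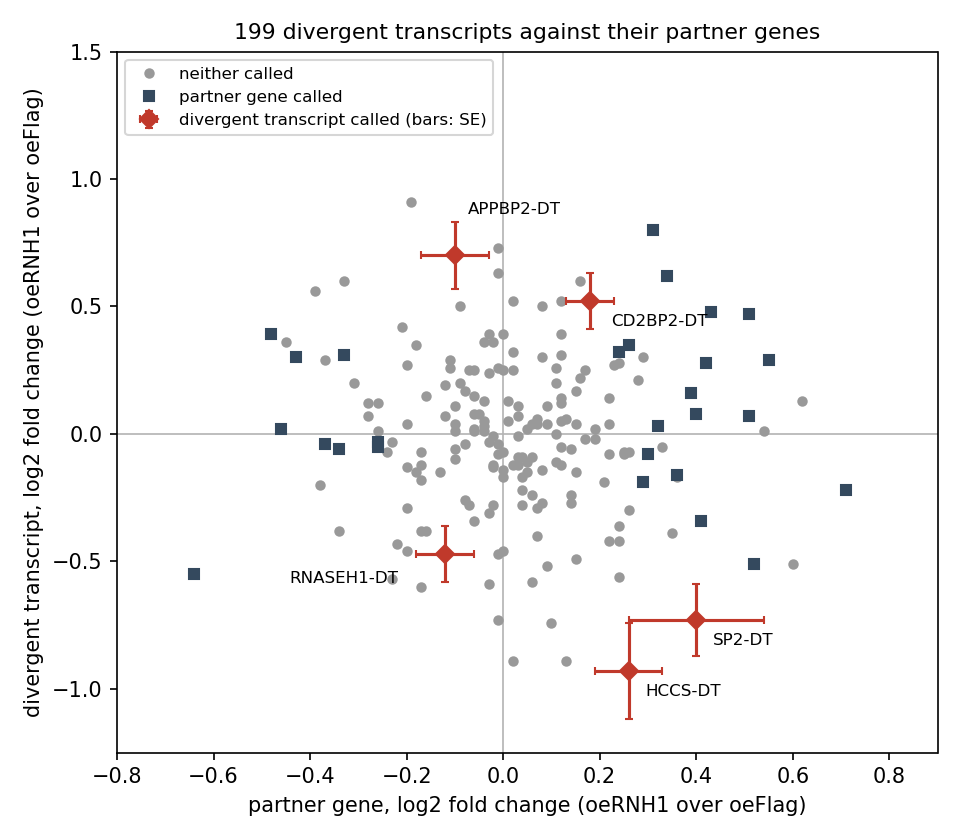
Log2 fold change, oeRNH1 over oeFlag, of each divergent transcript (y axis) against its partner gene (x axis) for 199 tested pairs. Red diamonds with SE bars are the 5 called divergent transcripts, blue squares the 27 pairs whose partner was called. No pair is called on both axes, and the Pearson correlation over the pairs was -0.06.

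The difference within each pair was tested directly over 1768 head-to-head pairs. It was log2(TPM + 1) of the divergent transcript minus log2(TPM + 1) of the partner in each library. The added 1 shrinks changes of a scarce transcript more than those of an abundant partner. Equal fold changes in TPM can therefore still give a difference. The difference passed in 2 of the 199 pairs with a divergent transcript (1.01%), against 5.03% of all 1768 pairs and 5.54% of the 1569 others. Both were lower, a direction with 2.83% of all 1768 pairs (2.21% were higher). SP2-DT moved against SP2 by -1.13 ± 0.23 (SE, 95% interval -1.65 to -0.61, limma adjusted p = 0.0326), and HCCS-DT against HCCS by -1.19 ± 0.24 (-1.74 to -0.64, limma adjusted p = 0.0329). APPBP2-DT against APPBP2 was at 0.79 ± 0.18 (0.37 to 1.22, limma adjusted p = 0.0501). The differences of CD2BP2-DT at 0.35 ± 0.15 and of RNASEH1-DT at -0.35 ± 0.15 did not pass (limma adjusted p = 0.225 and 0.205). Over the 199 pairs the median difference was -0.01 (interquartile range -0.27 to 0.22), with a median standard error of 0.249. The SP2 and HCCS calls were lost when the other pairs were taken within 5 kb and when oeFlag replicate 1, oeRNH1 replicate 1 or oeRNH1 replicate 2 was left out.

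The next largest difference on the lower side was ZFP28-DT, beside a zinc-finger gene, at -1.11 ± 0.31. It had 0.7 and 0.72 TPM in oeRNH1 libraries and 1.05 and 1.88 TPM in oeFlag libraries, while ZFP28 had 3.92 and 3.94 TPM in oeRNH1 libraries and 2.35 and 2.16 TPM in oeFlag libraries. The divergent transcript was lower and the partner higher in both oeRNH1 libraries, and the limma adjusted p was 0.0829. On the upper side CRIM1-DT differed from CRIM1, the gene of a cysteine-rich membrane protein that binds bone morphogenetic proteins, by 1.09 ± 0.42 (limma adjusted p = 0.164). CRIM1-DT had 1.09 and 2.34 TPM in oeRNH1 libraries and 0.99 and 0 TPM in oeFlag libraries, so 1 library was listed at 0. NSMCE1-DT differed from NSMCE1, the gene of a subunit of the SMC5/6 complex, by 0.95 ± 0.41 (limma adjusted p = 0.21). The oeFlag values of NSMCE1-DT, 2.12 and 0.56 TPM, lay far apart, against 2.59 and 1.93 TPM in oeRNH1 libraries. NSMCE1 itself was lower in both oeRNH1 libraries, at -0.39 ± 0.11 (limma adjusted p = 0.0722). GPR155-DT had 8.49 and 5.29 TPM in oeRNH1 libraries and 4.05 and 4.13 TPM in oeFlag libraries. Its difference from GPR155 was 0.94 ± 0.26 (limma adjusted p = 0.0854).

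Beside the 5 partners with the largest calls in the higher direction, none of the divergent transcripts passed the test. ZFAND2A, a stress-induced proteasome-associated zinc-finger protein, rose by 0.71 ± 0.06, with 55.13 and 54.35 TPM in oeRNH1 libraries and 32.39 and 33.69 TPM in oeFlag libraries (limma adjusted p = 0.00695). ZFAND2A-DT had 4.2 and 4.0 TPM in oeRNH1 libraries and 3.63 and 6.67 TPM in oeFlag libraries. Its groups overlapped, at -0.22 ± 0.24 (limma adjusted p = 0.574), and the difference within the pair was -0.94 ± 0.25 (limma adjusted p = 0.0692). STX5, a Golgi SNARE protein, rose by 0.52 ± 0.06 (limma adjusted p = 0.0101). STX5-DT had 0.78 and 1.36 TPM in oeRNH1 libraries and 2.47 and 1.44 TPM in oeFlag libraries, at -0.51 ± 0.26, with both oeRNH1 libraries the lower. The difference within that pair was -1.03 ± 0.3 (limma adjusted p = 0.0876).

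DNAJC3, a co-chaperone of the endoplasmic reticulum, rose by 0.55 ± 0.07 (limma adjusted p = 0.014). DNAJC3-DT had 4.31 and 4.39 TPM in oeRNH1 libraries and 3.73 and 3.04 TPM in oeFlag libraries, higher in both oeRNH1 libraries at 0.29 ± 0.15, and did not pass (limma adjusted p = 0.239). MAFG, a small Maf transcription factor, rose by 0.51 ± 0.07, and MAFG-DT was at 0.07 ± 0.17 with overlapping groups. MICB, a stress-induced ligand of the NKG2D receptor, rose by 0.51 ± 0.08, and MICB-DT was at 0.47 ± 0.25 with 1.34 and 1.69 TPM in oeRNH1 libraries and 0.54 and 1.14 TPM in oeFlag libraries. For these 3 pairs the difference within the pair lay between -0.44 and -0.04, with limma adjusted p of 0.297 to 0.953, and its intervals leave room for a difference in either direction.

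None of the 5 divergent transcripts beside the partners with the largest calls in the lower direction passed the test either. HK2, the hexokinase that starts glycolysis, fell by 0.64 on the log2 scale, with 18.91 and 17.26 TPM in oeRNH1 libraries and 28.9 and 28.66 TPM in oeFlag libraries (limma adjusted p = 0.0121). HK2-DT had 3.43 and 3.13 TPM in oeRNH1 libraries and 4.37 and 6.28 TPM in oeFlag libraries. It was lower in both oeRNH1 libraries, at -0.55 ± 0.18 (limma adjusted p = 0.103), and the difference within the pair was 0.1 ± 0.22. ZNF516, a zinc-finger protein, fell by 0.48, while ZNF516-DT had 1.44 and 1.16 TPM in oeRNH1 libraries and 0.93 and 0.59 TPM in oeFlag libraries. ZNF516-DT was thus the higher in both oeRNH1 libraries, at 0.39 ± 0.23, and the difference within the pair was 0.87 ± 0.29 (limma adjusted p = 0.125). SUCLG2, a succinyl-CoA ligase subunit of the citric acid cycle, fell by 0.43, and SUCLG2-DT was at 0.3 ± 0.19. PTPN23, a phosphatase-like protein of endosomal sorting, fell by 0.46, and PTPN23-DT was at 0.02 ± 0.19. AKAP1, which anchors protein kinase A at mitochondria, fell by 0.37, and AKAP1-DT was at -0.04 ± 0.17. These 4 divergent transcripts had limma adjusted p between 0.295 and 0.96, and their partners between 0.026 and 0.0334.

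The machinery that ends or degrades transcripts upstream of promoters was read from a list of 58 genes, of which 57 were tested. Of these, 2 were called higher and 2 lower (7.02%, against 11.8% of all tested genes), at a median log2 fold change of -0.02. EXOSC5 and EXOSC7, core subunits of the RNA exosome, fell by 0.35 and 0.31 (SE 0.07 and 0.06). EXOSC9, another core subunit, rose by 0.26 ± 0.06, and CCNT1, the cyclin of the elongation kinase P-TEFb, rose by 0.42 ± 0.06. Their limma adjusted p ran between 0.0156 and 0.0459. After GC correction EXOSC5 stood at -0.26 (limma adjusted p = 0.0693) and EXOSC9 at 0.18 (0.126), so that neither passed. By limma, 0 of 7 tested genes of the cap-binding and Restrictor group were called (0 at an unadjusted p under 0.05), 0 of 14 of the Integrator complex (7) and 0 of 9 of U1 and cleavage factors (1). The share of all tested genes at an unadjusted p under 0.05 was 31.3%. The part of these levels in the divergent transcripts was not tested.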

How the data were processed

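The authors deposited 1 table of TPM values, with a column per library and 38972 genes; columns summed to 998901 to 998955. STAR and hg38 were used, per the submitters' processing notes. The sources used here do not give the quantification program, annotation release or strand setting. TPM keeps no depth, so no counting interval was computed. No library was a duplicate: any 2 shared the same value in at most 0.422% of tested genes.

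Genes averaging 1 TPM or more were tested as log2(TPM + 1) with limma 3.58.1 in R 4.3.3 (intensity trend, two-sided), with Benjamini-Hochberg adjustment over 15651 genes and calls at an adjusted p under 0.05. The pseudocount of 1 makes fold changes of low genes smaller. Pair differences were fitted over 1768 head-to-head pairs (opposite strands, starts within 1 kb), adjusted over those. The procedure was tested on simulated data. Gene models came from GENCODE release 29, matched for 35885 of 38972 genes. Plots used matplotlib 3.10.9 (Python 3.11.15).

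The members, lists and tests were chosen with earlier results of these data known. Named were the called members, the members whose partners had the 5 largest called changes in either direction, the 10 most abundant, the 3 largest pair differences in either direction, RNASEH1-DT, the 3 on either side of 1 TPM and the called genes of the turnover list. RPL37A-DT, H3-3A-DT, EPM2A-DT, CHKB-DT, PPP4R3B-DT, TRIM8-DT, RNH1 and the transcripts in the closing section were chosen after their values were seen. Of the transcripts that the rule names, 1 is not reported here. Alternatives were other pseudocounts, filters, scalings and variance models, GC correction, a replicate block and each library left out.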

Additional observations from a re-analysis of the deposited data

How the results depend on the processing

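Counts of calls depended most on the variance model, the filter and the number of libraries. Without the filter on low values, and again without an intensity trend, limma called 0 divergent transcripts in place of 5 (18 and 37 at an unadjusted p under 0.05), 0 partners in place of 27 (66 and 58), 0 pair differences in place of 2 (24 and 32) and 0 turnover genes in place of 4 (17 and 9). Leaving out each library gave 0 to 0 divergent transcripts, 0 to 0 partners (43 to 64 at an unadjusted p under 0.05), 0 to 5 pair differences and 0 to 0 turnover genes (8 to 14). The 5 pair differences, without oeFlag replicate 1, shared 0 with the 2 above. Such fits hold 1 library in a group, which is assumed to vary like the other group. Pair differences came to 8 with a pseudocount of 5, to 1 with a minimum mean of 5 TPM, and to 0 with other pairs within 5 kb (24 at an unadjusted p under 0.05). Turnover calls came to 7 with the minimum mean of 5 TPM. Among the 47 divergent transcripts past that minimum there were 5 calls, 3 of them shared with the 5 above. The share of all tested genes or pairs called under each of these settings is not given here. The counts therefore do not set these transcripts apart from other genes.

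Deviations of equally numbered libraries correlated at 0.0307 over the tested genes. The labels do not say whether equal numbers share anything, and this value alone cannot tell whether the libraries were paired. With the replicate number as a block, 9 divergent transcripts were called, all 5 among them, 36 partners, 3 pair differences and 8 turnover genes. The share of all tested genes called with the block is not given here. Whether these counts follow a shift in all genes cannot be read from them.

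Of 1129 values over 82 genes and pair differences, 951 kept their direction and side of the threshold, 130 lost a call, 19 gained one and 29 changed sign, in 17 genes or pair differences. Of the 5 called divergent transcripts 0 changed sign, and limma adjusted p of the values that did was at least 0.237. Quantile normalization gave log2 fold changes of -0.01 for PTPN23-DT, 0.02 for COX10-DT and -0.05 for SMC5-DT. GC correction gave -0.01 for UBA6-DT and for SMC5-DT, and a pseudocount of 0.1 gave a difference of 0.31 between MICB-DT and MICB. Leaving out each library gave log2 fold changes of -0.59 to 0.14 for ZFAND2A-DT, -0.07 to 0.11 for PTPN23-DT, -0.19 to 0.11 for AKAP1-DT, -0.07 to 0.16 for UBA6-DT, -0.1 to 0.09 for COX10-DT, -0.43 to 0.09 for ANKRD42-DT, -0.06 to 0.34 for KDSR-DT, -0.18 to 0.19 for SMC5-DT and -1.04 to 0.52 for FHIP1A-DT. Among partners these ranges were -0.45 to 0.11 for RAB30, -0.11 to 0.01 for TMEM161B, -0.06 to 0.25 for UBA6, -0.12 to 0.19 for COX10, -0.04 to 0.27 for KDSR and -0.21 to 0.04 for FHIP1A. Differences within pairs were -0.27 to 0.18 for MICB-DT against MICB and -0.13 to 0.32 for HK2-DT against HK2. The cause was not tested. No scaling moved the median of all genes by over 0.1. With 2 libraries a group and unknown depth, small changes of scarce transcripts could not be detected.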

Other observations

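In some divergent transcripts the libraries of a group lay far apart. H2AZ2-DT, beside the gene of a histone H2A.Z variant, had 0 and 7.24 TPM in oeRNH1 libraries and 1.99 and 0 TPM in oeFlag libraries. KPNB1-DT, beside the importin beta gene, had 2.32 and 6.27 TPM in oeRNH1 libraries and 1.88 and 10.72 TPM in oeFlag libraries. DHX35-DT, beside a helicase gene, had 7.41 and 1.83 TPM in oeRNH1 libraries and 4.05 and 9.73 TPM in oeFlag libraries. The larger value of TPM + 1 was at least 2 times the smaller in 7 of 203 transcripts within oeRNH1 and in 6 within oeFlag.

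Of the 27 pairs in which the partner alone passed the test, both fold changes had the same sign in 17 and opposite signs in 10. RRAGC, TNKS2 and NUP50 are partners among the 17. RRAGC, a Rag GTPase of the amino acid branch of mTORC1 signalling, rose by 0.34 (limma adjusted p = 0.0276), and RRAGC-DT had 3.74 and 3.43 TPM in oeRNH1 libraries and 2.12 and 1.84 TPM in oeFlag libraries, at 0.62 ± 0.16 (limma adjusted p = 0.0562). TNKS2, a tankyrase, rose by 0.31 (limma adjusted p = 0.0365), and TNKS2-DT had 5.15 and 3.61 TPM in oeRNH1 libraries and 2.59 and 1.61 TPM in oeFlag libraries, at 0.8 ± 0.23 (limma adjusted p = 0.0742). NUP50, a nuclear pore protein, rose by 0.26 (limma adjusted p = 0.0273), and NUP50-DT had 6.61 and 5.88 TPM in oeRNH1 libraries and 4.5 and 4.83 TPM in oeFlag libraries, at 0.35 ± 0.13 (limma adjusted p = 0.119). In each of these 3 pairs both oeRNH1 libraries were above both oeFlag libraries for the divergent transcript. USP34-DT, beside a deubiquitinase gene, had 6.76 and 10.06 TPM in oeRNH1 libraries and 13.58 and 12.22 TPM in oeFlag libraries, at -0.58 ± 0.18 (limma adjusted p = 0.0843), while USP34 was at 0.06.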
